A study of Homo sapiens with 12 samples.

Results

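The genes described here encode the general splicing factors whose symbols begin with SRSF, HNRNP, SF3A, SF3B, SNRP or SNRNP, and they were read in EndoC-βH3 cells that were either senescent or non-senescent. Members were chosen by a rule on gene symbols, with earlier results of these data known. The rule gave 64 of the 35337 genes in the deposited table. They comprised 12 SR proteins, 25 hnRNP proteins, 7 proteins of the Sm core, 3 proteins of the U1 particle, 11 of the U2 particle, 3 of the U5 particle and tri-snRNP and 3 of the minor spliceosome. EndoC-βH3 is a single human line made from fetal pancreas, with properties of beta cells, and it is immortalised by hTERT and SV40 large T antigen transgenes that a tamoxifen-dependent Cre recombinase can excise. Both groups are labelled WT and came from this same line, so both started from cells with the same transgenes. Senescent cells had been given 4-hydroxytamoxifen for 3 weeks and non-senescent cells served as the control. There were 6 samples per group, in a batch A (2 per group) and a batch B (4 per group). The comparison addresses which splicing factor transcripts differ between senescent and non-senescent cells. Arrest, 4-hydroxytamoxifen and excision of the transgenes cannot be told apart in it.

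Introns are removed by the spliceosome, which assembles on each intron from small nuclear ribonucleoproteins (snRNPs). Each snRNP holds a small nuclear RNA, a ring of Sm proteins that is common to most of them, and proteins of its own: U1 recognises the 5′ splice site, U2 the branch site, and U5 joins with U4 and U6 in the tri-snRNP that completes the complex. SR proteins bind exons and recruit the spliceosome, and hnRNP proteins coat the nascent transcript and often restrain splice site use. The balance between both families is known to shift exon choice.

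Expression was measured with CEL-seq2, which counts reads near the 3′ end of polyadenylated transcripts. Libraries held 8873569 to 17106776 reads in batch A and 4672924 to 7063264 in batch B, so a member of low abundance had less counting error in batch A but fewer replicates there. Values are normalised read counts, that is, reads divided by a size factor of the library. Of 9 beta-cell markers, 9 had reads, and their summed level, mostly CHGA, was 518670 to 652476 in non-senescent and 657510 to 858293 in senescent samples, with INS 4.70-fold higher in senescent cells. The 7 markers of other islet endocrine cells also had reads (168718 to 292174 against 117458 to 148244), as did 6 of 6 exocrine or duct markers (274 to 437 against 223 to 408) and 6 of 8 mesenchymal, endothelial or blood markers (32.6 to 184 against 27.8 to 93.9, with PDGFRB and VWF at 0). Within these sums CPA1 was higher in senescent samples (means 43.6 and 211), and KRT19 (311 and 125), PTPRC, GCG, SST and HHEX were lower, by the limits of the main test. All 8 proliferation markers were lower in senescent samples, with summed levels of 6306 to 8542 against 1055 to 1538. The part of these marker shifts in the results on splicing factors was not tested.

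Most splicing factor genes had a somewhat lower level in senescent cells, and the strongest falls were in snRNP proteins. Of the 64 members, 60 passed the filter, a mean of 5 normalised read counts or more. A gene was called when both groups differed by more than 1.5-fold and limma's p, adjusted by Benjamini-Hochberg over all genes tested, was under 0.1. By this rule 11 members (18.3%) were called, where 23.4% of all 13847 tested genes were. All 11 were lower in senescent cells (beside 11.8% of all genes) and 0 were higher (beside 11.6%). At an unadjusted p under 0.05, 5 members were higher, 0 of them by more than 1.5-fold, and edgeR and DESeq2 on the recovered reads likewise called 0 higher.

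The falls were mostly small. With the adjusted p alone, 35 members fell (58.3%, beside 22.3% of all tested genes) and 4 rose (6.67%, beside 23.2%), while 21 did not pass. The median log2 fold change, senescent minus non-senescent, was -0.29 over the 60 members and 0.01 over all tested genes. The member median was -0.23 within batch A and -0.31 within batch B. In 44 members (73.3%, beside 34.6% of all genes) the mean was lower in each batch. In 31 members (51.7%, beside 11.9%) every senescent sample lay under every non-senescent sample of its own batch, and in 1 member (1.67%, beside 11.9%) every senescent sample lay above. The standard error of the log2 fold change had a median of 0.084 over members and 0.157 over all genes, so smaller differences could pass the test in members. RNA is measured here per sample, and fewer cells expressing a gene and less RNA per cell cannot be told apart.

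**Figure D1:**
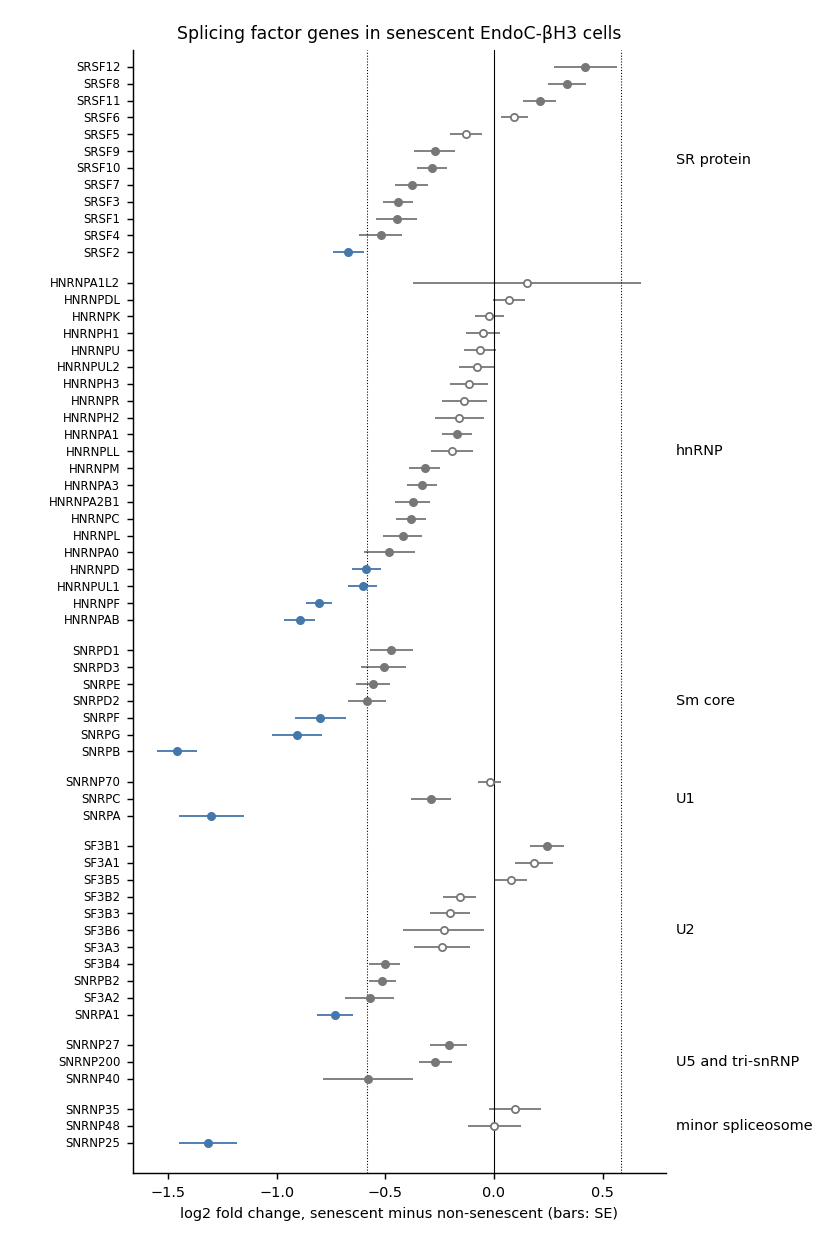
Log2 fold change, senescent minus non-senescent, of the 60 tested members (points, with standard errors from limma as bars), grouped by role. The Sm core members all lie left of 0, with SNRPB at -1.46, while SRSF12, SRSF8, SF3B1 and SRSF11 are the members that passed the adjusted p with a positive value.

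The scale of the libraries moved the size of these shifts. When every library was brought to the same total, the median of all genes went from 0.01 to -0.09 and that of the members from -0.29 to -0.39, and the calls over all genes changed from 1605 higher and 1632 lower to 1226 higher and 2090 lower. Under that scaling 20 members were called lower and 0 higher. The share of reads taken by all members together was 8720 to 9742 ppm (parts per 1e6) of the reads in non-senescent and 6364 to 7273 ppm in senescent samples, without overlap. Such a share puts every library at the same total, so it carries the shift of that scaling, as do the ppm values of single families below. Their summed normalised read counts were 61616 to 68701 in non-senescent and 47838 to 57255 in senescent samples, also without overlap.

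The promoters of the 3 members with the largest falls are shown here to give the sequence at their start sites. They are the 250 bases before the RefSeq start on GRCh38.p14, written 5′ to 3′ on the gene's strand. Capitals mark the letters CCGGAAG, a core bound by ETS factors, and CCAAT, bound by NF-Y, on either strand. The SNRPB stretch is chr20:2470790-2471039 (minus strand), that of SNRPA is chr19:40750953-40751202 (plus strand) and that of SNRNP25 is chr16:53578-53827 (plus strand). The gene positions given below are from GENCODE, which starts SNRPB (2470853) and SNRPA (40750637) further upstream. The SNRPB stretch thus lies partly, and the SNRPA stretch wholly, inside the gene as GENCODE places it.
SNRPB: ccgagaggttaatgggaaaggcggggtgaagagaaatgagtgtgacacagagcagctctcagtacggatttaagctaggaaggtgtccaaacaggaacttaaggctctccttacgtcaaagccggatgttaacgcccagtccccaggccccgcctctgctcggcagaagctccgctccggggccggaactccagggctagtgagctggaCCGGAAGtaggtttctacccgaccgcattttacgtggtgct
SNRPA: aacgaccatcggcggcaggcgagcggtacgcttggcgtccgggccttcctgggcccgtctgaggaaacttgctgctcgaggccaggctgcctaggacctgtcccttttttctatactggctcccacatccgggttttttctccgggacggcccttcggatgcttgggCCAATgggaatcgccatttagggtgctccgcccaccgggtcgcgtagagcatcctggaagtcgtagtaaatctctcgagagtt
SNRNP25: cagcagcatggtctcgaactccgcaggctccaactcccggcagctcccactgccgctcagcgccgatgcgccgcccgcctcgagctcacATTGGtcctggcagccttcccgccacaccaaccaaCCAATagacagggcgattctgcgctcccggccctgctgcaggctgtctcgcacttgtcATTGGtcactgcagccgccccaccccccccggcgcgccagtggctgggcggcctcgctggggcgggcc

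The ETS letters of SNRPB begin 41 bases before its RefSeq start, and the CCAAT box of SNRPA begins 83 bases before its RefSeq start. SNRNP25 has CCAAT boxes 161, 126 and 68 bases before its start. Windows of 250 bases before and 50 after the start were found for 55 of the 60 tested members, 10 of them called. CCAAT was in 6 of the 10 called and 18 of the other 45 members, beside 35.7% of all 27305 windows and 36.7% of the windows of tested genes. CCGGAAG was in 5 of 10 called and 15 of 45 other members, beside 10.7% of all windows and 18.8% of the windows of tested genes. An E2F motif (TTTCCCGC, TTTGGCGC, TTTCGCGC or TTTGCCGC) was in 1 of 10 and 5 of 45, beside 3.33% of all windows and 5.25% of those of tested genes. The called member with an E2F motif was SNRPB, where it lies within the 50 bases after the start. The cell cycle element TTTGAA was in 0 of 10 and 2 of 45, beside 15.4% and 9.66%. Both strands were searched, matches of different motifs may overlap, and a match describes letters rather than a bound site.

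All 7 Sm core genes fell by the adjusted p (100%, beside 22.3% of all tested genes), and SNRPB fell the most of any member. Past both limits were 3 of the 7 (42.9%, beside 11.8%). SNRPB, at chr20:2461634-2470853 on the minus strand, encodes Sm B, a subunit of the ring that forms around the small nuclear RNAs. Non-senescent samples held 3286 and 3160 normalised read counts in batch A and 5088, 4514, 4216 and 4639 in batch B, and senescent samples held 1528 and 1504 in batch A and 1304, 1543, 1494 and 1564 in batch B. Every senescent sample was thus under every non-senescent sample, and the batches differed among non-senescent but little among senescent samples. The mean fell from 4150 ± 772 to 1489 ± 94.4 (SD, n = 6), a log2 fold change of -1.46 ± 0.09 (standard error, with adjusted p = 1.38e-09).

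SNRPG and SNRPF, whose products join the ring together with Sm E, also passed both limits. SNRPG (chr2:70281362-70293740, minus strand) held 1001 to 1631 (median 1211) in non-senescent samples and 524 to 853 (median 708) in senescent samples, without overlap. Its means were 1295 ± 270 and 691 ± 140 (SD, n = 6), and the log2 fold change was -0.91 ± 0.11 (standard error, with adjusted p = 7.74e-06). SNRPF (chr12:95858952-95903828, plus strand) held 313 to 474 (median 369) and 178 to 257 (median 216), again without overlap, with a log2 fold change of -0.80 ± 0.12 (standard error, with adjusted p = 3.48e-05).

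The genes of the other ring proteins Sm D2, E, D3 and D1, namely SNRPD2, SNRPE, SNRPD3 and SNRPD1, fell by 0.58, 0.56, 0.51 and 0.47 on the log2 scale, all short of 1.5-fold. Each fell less within batch A, most clearly SNRPD3 (0.19, against 0.66 in batch B, adjusted p of the difference = 0.21). In each of the 7 Sm core genes the senescent samples lay under the non-senescent samples of their batch, as in 11.9% of all tested genes. The reads of the 7 genes together amounted to 1106 to 1240 ppm in non-senescent and 479 to 592 ppm in senescent samples. Processed pseudogenes took up to 16.7% of the joint reads of SNRPE, 11.9% of SNRPG and 6.29% of SNRPF in a library. With those reads added, the log2 fold changes were -0.56, -0.90 and -0.80.

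SNRPN, whose symbol ends in a letter that the rule does not take, encodes Sm N, a close paralog of Sm B that can take its place in the ring and is expressed from the paternal allele in neurons. It was chosen for description after its values were seen. It held 1319 and 1396 in batch A and 1005 to 1024 in batch B of the non-senescent samples, and 1866 and 1958 in batch A and 1253 to 1488 in batch B of the senescent samples. SNRPN thus ran opposite to SNRPB in both batches, with a log2 fold change of 0.47 ± 0.06 (standard error, with adjusted p = 1.22e-05), under the 1.5-fold limit. The last exon of SNRPN overlaps SNHG14 on the same strand, so reads of that host transcript may be included.

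Of the reads of SNRPB and SNRPN together, SNRPN made up 28.7% and 30.6% in non-senescent batch A samples and 16.7% to 19.3% in batch B. In senescent samples it made up 55.4% and 56.2% in batch A and 44.8% to 53.1% in batch B. The shares did not overlap between groups in either batch. The sum of both genes still fell, from 4555 to 4605 in batch A and 5227 to 6108 in batch B down to 3370 to 3486 and 2780 to 3053. These shares compare groups, since differences between both genes in how well their 3′ ends are captured were not measured.

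**Figure D2:**
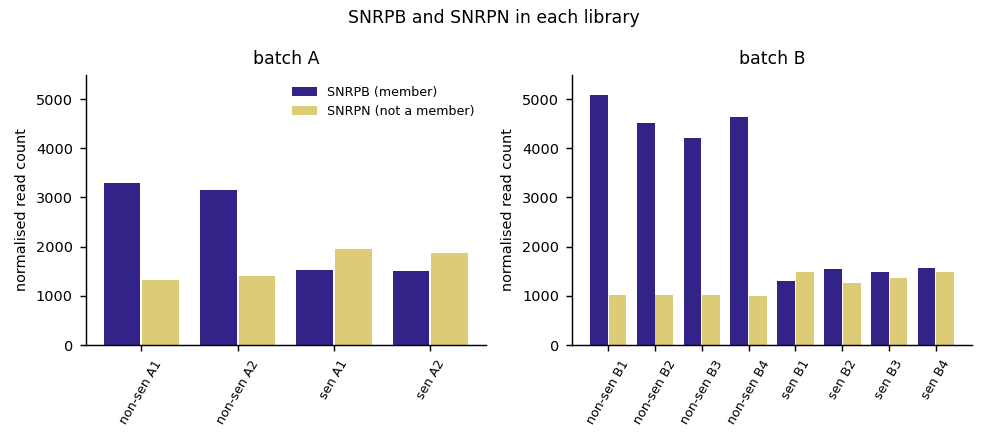
Normalised read counts of SNRPB and SNRPN in each of the 12 samples, as bars, with batch A on the left and batch B on the right. SNRPB is lower and SNRPN higher in each senescent sample than in the non-senescent samples of its batch, and the senescent SNRPB bars range from 1304 to 1564.

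Among the proteins particular to U1, SNRPA fell strongly, SNRPC slightly and SNRNP70 did not pass. SNRPA (chr19:40750637-40765389, plus strand), or the A protein of U1, binds a stem loop of the U1 RNA. It held 97.8 and 114 in batch A and 101, 71.6, 84.8 and 73.3 in batch B of the non-senescent samples, against 44 and 49.5 in batch A and 30.3, 28.3, 37.8 and 28.6 in batch B of the senescent samples. All senescent samples were under all non-senescent ones, and the log2 fold change was -1.30 ± 0.15 (standard error, with adjusted p = 2.97e-06). SNRPC, or the C protein of U1, which steadies the pairing of U1 with the 5′ splice site, fell by 0.29 (adjusted p = 0.0179). SNRNP70, which helps hold the C protein on the particle and contacts SR proteins, had a log2 fold change of -0.02 ± 0.06 (standard error, with adjusted p = 0.81), with means of 2197 ± 632 and 2143 ± 536 (SD, n = 6).

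Of the 11 U2 proteins, 4 fell (36.4%, beside 22.3% of all tested genes) and 1 rose (9.09%, beside 23.2%) by the adjusted p. SNRPA1 (chr15:101281510-101295282, minus strand), or the A′ protein of U2, was the one past both limits (9.09%, beside 11.8%). It held 510 to 626 (median 537) in non-senescent and 262 to 417 (median 331) in senescent samples, without overlap, and its log2 fold change was -0.73 ± 0.08 (standard error, with adjusted p = 2.45e-06). SNRPB2, or the B″ protein of U2, which binds U2 RNA together with SNRPA1, fell by 0.51 (adjusted p = 5.87e-06).

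SF3A2, a subunit of the SF3A complex of U2, fell by 0.57 (adjusted p = 0.00068), and SF3B4, which contacts RNA next to the branch site, fell by 0.50 (adjusted p = 2.73e-05). SF3A2 levels were far apart between batches, at 893 and 896 in non-senescent batch A samples but 96.4 to 139 in batch B, and senescent samples were lower within each, at 583 and 616 and at 60.9 to 88.4. SF3B1, the large scaffold that clamps the branch site and is recurrently mutated in myeloid malignancies, rose. It held 1149 to 1574 in non-senescent samples (median 1355) and 1451 to 1871 in senescent samples (median 1579), with overlap, and a log2 fold change of 0.25 ± 0.08 (standard error, with adjusted p = 0.0182). SF3B1 no longer passed when every library was brought to the same total (adjusted p = 0.194). The remaining 6 U2 members, SF3A1, SF3A3, SF3B2, SF3B3, SF3B5 and SF3B6, did not pass.

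The 3 members of the U5 particle and tri-snRNP fell by the adjusted p (100%, beside 22.3% of all tested genes), each by less than 1.5-fold. SNRNP200, the helicase that unwinds U4 from U6, fell by 0.27 (adjusted p = 0.00902), and SNRNP27 of the tri-snRNP fell by 0.21 (adjusted p = 0.064). SNRNP27 did not pass without the non-senescent libraries A1 or B1 or the senescent libraries A1, B1 or B4 (adjusted p up to 0.145), and its last exon overlaps MXD1 on the same strand. SNRNP40, a WD-repeat protein of U5, had a log2 fold change of -0.58 (adjusted p = 0.0337) over both batches, and the batches did not move alike. In batch A it held 52.2 and 73.9 in non-senescent and 69.6 and 79.7 in senescent samples. In batch B it held 111, 93.6, 93.5 and 117 in non-senescent and 46.0, 53.5, 64.1 and 43.6 in senescent samples. The groups thus overlapped in batch A, where senescent values were if anything higher, and were apart in batch B.

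The minor spliceosome removes a rare class of introns and has a U11/U12 particle in place of U1 and U2. Of its 3 members SNRNP25 was among the strongest falls and SNRNP35 and SNRNP48 did not pass. SNRNP25 (chr16:53828-57669, plus strand), a protein of the U11 particle, held 141 and 126 in batch A and 97.9, 116, 93.5 and 99.4 in batch B of the non-senescent samples, against 53.9 and 50.7 in batch A and 46.0, 36.7, 44.6 and 34.9 in batch B of the senescent ones. The highest senescent sample was well below the lowest non-senescent sample. The log2 fold change was -1.32 ± 0.13 (standard error, with adjusted p = 5.3e-07), with -1.33 within batch A and -1.31 within batch B. SNRNP35, which stands in for the U1 protein SNRNP70, had a log2 fold change of 0.10 ± 0.12 (standard error) and SNRNP48, which contacts the 5′ splice site, of 0.002 ± 0.12 (standard error).

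**Figure D3:**
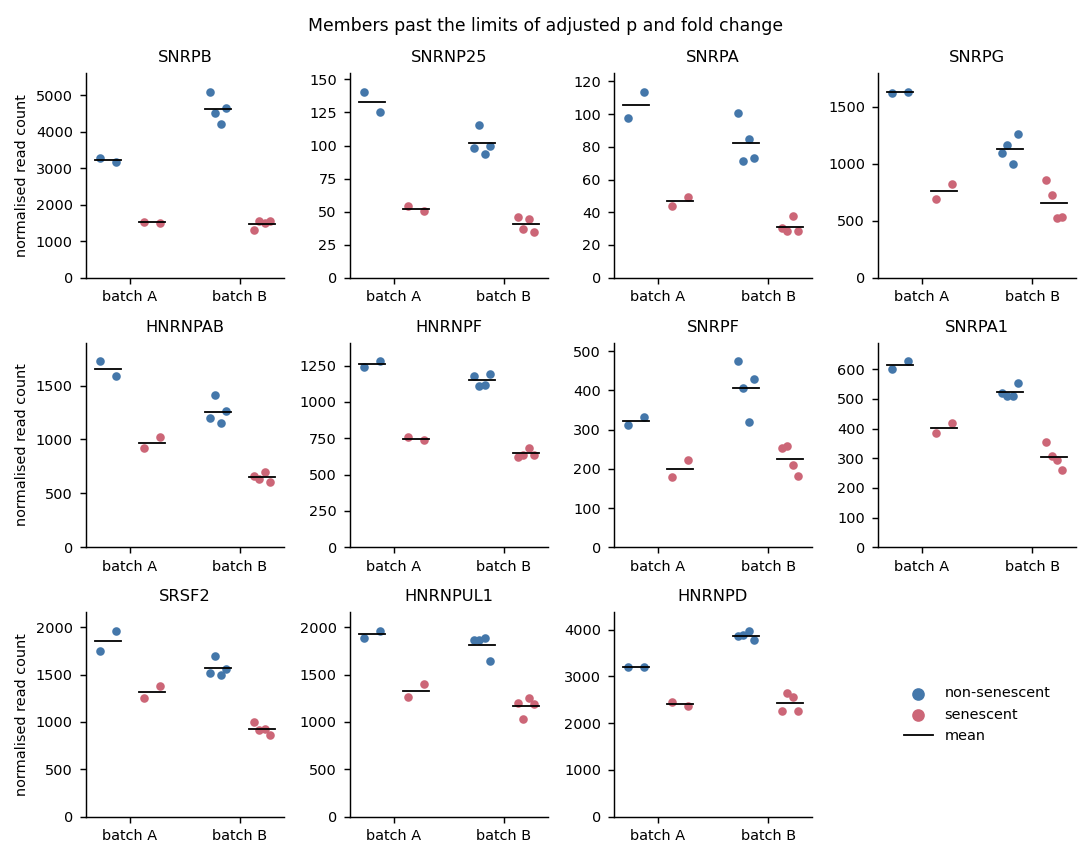
Normalised read counts of the called members in each sample (points), by batch and group, with the mean as a line and axes that start at 0. Senescent samples of each batch lie under the non-senescent samples of that batch in all 11 genes.

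Among 21 tested hnRNP genes, 4 passed both limits, all of them lower (19.0%, beside 11.8% of all tested genes). By the adjusted p 11 fell (52.4%, beside 22.3%) and 0 rose (beside 23.2%). HNRNPAB (chr5:178204533-178211163, plus strand), which binds single-stranded nucleic acids, held 1154 to 1725 (median 1343) in non-senescent and 604 to 1020 (median 678) in senescent samples. HNRNPF (chr10:43385617-43409186, minus strand), which binds runs of guanines near splice sites, held 1107 to 1280 (median 1187) and 624 to 757 (median 661). Neither gene overlapped between groups, with log2 fold changes of -0.89 ± 0.07 (standard error, with adjusted p = 3.8e-08) for HNRNPAB and -0.81 ± 0.06 (standard error, with adjusted p = 1.56e-08) for HNRNPF. The last exon of HNRNPAB overlaps PHYKPL on the opposite strand, and whether the counting used strand is not stated.

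HNRNPUL1 (chr19:41262496-41307787, plus strand), a relative of HNRNPU with a role in the response to DNA breaks, held 1647 to 1961 (median 1876) and 1031 to 1396 (median 1224), with a log2 fold change of -0.60 ± 0.07 (standard error, with adjusted p = 1.77e-06). Its last exon also overlaps an unnamed gene on the opposite strand. HNRNPD (chr4:82352498-82374503, minus strand), or AUF1, which binds AU-rich elements and speeds the decay of their transcripts, held 3201 to 3975 (median 3820) and 2259 to 2645 (median 2416), with a log2 fold change of -0.59 ± 0.07 (standard error, with adjusted p = 1.81e-06). Both sat near the 1.5-fold limit, and both lay outside it in batch A alone (-0.53 and -0.41). HNRNPUL1 was also outside it without the senescent library B2 (-0.56), and HNRNPD without any of the non-senescent libraries B1, B2 and B3 or the senescent libraries B1 and B4 (-0.58 to -0.56).

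The remaining hnRNP genes that passed the adjusted p were HNRNPA0, HNRNPL, HNRNPC, HNRNPA2B1, HNRNPA3, HNRNPM and HNRNPA1. They fell by 0.48, 0.42, 0.38, 0.37, 0.33, 0.32 and 0.17 on the log2 scale. HNRNPA0 fell by 0.12 within batch A and 0.66 within batch B, and HNRNPA1 by 0.04 and 0.24 (adjusted p of the difference = 0.203 and 0.539). HNRNPL, HNRNPA3 and HNRNPM fell slightly more within batch A. HNRNPC binds uridine tracts and keeps cryptic exons out, HNRNPL binds CA repeats, and HNRNPA1 and HNRNPA2B1 are abundant silencers of exon inclusion. HNRNPA1 was the weakest, with an adjusted p of 0.0657, and it did not pass without the non-senescent libraries B1 or B4 or the senescent libraries B1 or B2 (adjusted p up to 0.151). It has processed pseudogenes that took 1.39% to 5.01% of the joint reads. The last exon of HNRNPA3 overlaps NFE2L2 on the opposite strand.

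The 9 further full-length hnRNP genes, among them HNRNPK, HNRNPU, HNRNPR, HNRNPH1 and HNRNPLL, and the retrocopy HNRNPA1L2 did not pass. HNRNPA1L2 had a log2 fold change of 0.15 with a standard error of 0.53. HNRNPCL1, HNRNPCL2, HNRNPCL3 and HNRNPCL4, retrocopies of HNRNPC, had 0 reads in every library, and a count of 0 allows up to 3 reads, or 1.35 to 4.52 normalised read counts depending on the library. This floor covers counting error only. All hnRNP reads together amounted to 4347 to 4760 ppm in non-senescent and 3162 to 3563 ppm in senescent samples.

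By the adjusted p 7 of 12 SR proteins were lower (58.3%, beside 22.3% of all tested genes) and 3 higher (25%, beside 23.2%). The share that rose was thus near that of all genes. SRSF2 (chr17:76734115-76737333, minus strand), or SC35, a general activator of exon inclusion, was the one member past both limits (8.33%, beside 11.8%). It held 1492 to 1961 (median 1628) in non-senescent and 861 to 1384 (median 966) in senescent samples, without overlap, and its log2 fold change was -0.67 ± 0.07 (standard error, with adjusted p = 1.14e-06). In batch A alone it was -0.49, short of 1.5-fold.

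SRSF4, SRSF1, SRSF3, SRSF7, SRSF10 and SRSF9 fell by 0.52, 0.45, 0.44, 0.38, 0.28 and 0.27. SRSF9 fell by 0.08 within batch A and 0.37 within batch B (adjusted p of the difference = 0.511), whereas SRSF4 and SRSF10 fell slightly more within batch A. SRSF1 shifts 5′ splice site choice, SRSF3 and SRSF7 also couple splicing to export, and SRSF10 becomes a repressor when dephosphorylated. The last exon of SRSF9 overlaps GATC on the opposite strand, and those of SRSF1 and, in the Sm core, SNRPD3 overlap unnamed genes on the same strand.

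SRSF8 was the only member in which each senescent sample was above the non-senescent samples of its batch. It held 368 and 454 in batch A and 325, 414, 387 and 358 in batch B of the non-senescent samples, against 498 and 483 in batch A and 533, 441, 494 and 453 in batch B of the senescent samples. Its log2 fold change was 0.34 ± 0.09 (standard error, with adjusted p = 0.00545). SRSF8 arose as a retrocopy of SRSF2, so reads that both share could have been divided between them.

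SRSF12, a repressive SR-like protein, held 72.3 to 142 (median 91.7) in non-senescent and 110 to 164 (median 127) in senescent samples. Its groups overlapped in batch B, and the log2 fold change was 0.42 ± 0.15 (standard error, with adjusted p = 0.0296). SRSF11, a partner of U2AF, had 0.21 ± 0.08 (standard error, with adjusted p = 0.0384). Its rise was limited to batch B in these values, with log2 fold changes of -0.03 (batch A) and 0.33 (batch B), whose difference did not pass the test (adjusted p = 0.163), and it no longer passed when libraries were brought to the same total (adjusted p = 0.337). SRSF5 and SRSF6 did not pass. SR protein reads together amounted to 1748 to 1879 ppm in batch A and 1319 to 1475 in batch B of the non-senescent samples, against 1485 to 1546 and 1103 to 1161 in the senescent samples, lower within each batch.

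The response differed between batches in 2 of the 60 members when the interaction of batch with group was tested, again at 0.1 for the adjusted p (3.33%, beside 4.21% of all tested genes). SNRPB fell by 1.09 and 1.64 within batches A and B (adjusted p of the difference = 0.0341). SNRNP40 had log2 fold changes of 0.26 and -0.998 (adjusted p of the difference = 0.0496). Leaving out a library of batch A leaves 1 sample in a group there. The SNRPB call ended without each such library and the SNRNP40 call without all but non-senescent A2, while the differences stayed of similar size. Without any of the 4 in turn, SNRPB differed by -0.58 to -0.53 (main value -0.56), with an adjusted p of 0.106 to 0.184. SNRNP40 differed by -1.35 to -1.01 (main value -1.26) without non-senescent A1, senescent A1 or senescent A2, with an adjusted p of 0.159 to 0.247.

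**Figure D4:**
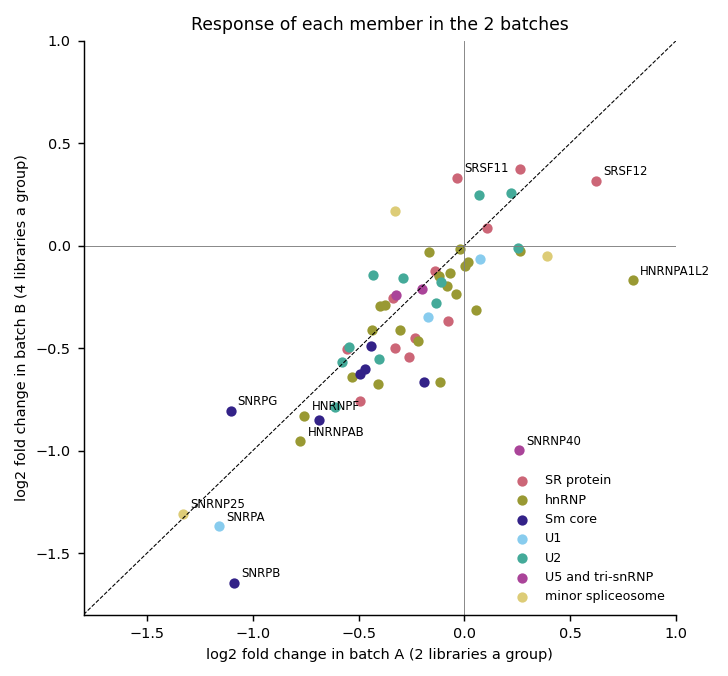
Log2 fold change of each tested member in batch A (2 samples per group) against that in batch B (4 per group), coloured by role, with the line of equal response dashed. SNRNP40 lies apart, at 0.26 in batch A but -0.998 in batch B, and SNRPB is the lowest member in batch B, at -1.64.

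Members also differed in level between batches. Among non-senescent samples 5 members were more than 2-fold higher in batch B, led by SNRNP27 (3.54-fold) and SNRNP35 (3.33-fold), and 9 were more than 2-fold lower, among them SRSF6 at 3976 and 4131 in batch A and 912 to 968 in batch B. That is 23.3% of members, beside 34.5% of all tested genes. Batch B was also sequenced less deeply, and batch and depth cannot be told apart for these levels. The fold changes above were fitted with a term for batch.

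Other genes of the splicing machinery moved in both directions. They were 150 in 11 lists drawn up by function, with earlier results of these data known. Of 144 that passed the filter 20 were called lower (13.9%, beside 11.8% of all tested genes) and 4 higher (2.78%, beside 11.6%). By the adjusted p alone 54 fell (37.5%, beside 22.3%) and 22 rose (15.3%, beside 23.2%). Their median log2 fold change was -0.09, with a median standard error of 0.111. In the LSm proteins, which form the ring of U6 and of decay complexes, LSM4, LSM3 and LSM2 were called lower (30%, beside 11.8%). Their falls were 1.02, 0.81 and 0.77. By the adjusted p 6 of the 10 LSm genes fell (60%, beside 22.3%). Among 10 genes of branch site and 3′ splice site recognition 4 were called lower (40%, beside 11.8%). They were CHERP, PHF5A, RBM17 and U2AF2, the large U2AF subunit, with falls of 0.60 to 0.68.

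In the exon junction and export list 7 of 9 fell by the adjusted p (77.8%, beside 22.3% of all tested genes). ALYREF, an export adaptor, had the largest fall of the 144 at 1.53, from 207 ± 44.4 to 72.9 ± 22.6 (SD, n = 6), and MAGOH fell by 0.68. The tri-snRNP and U5 list had 8 of 14 lower (57.1%, beside 22.3%), with PPIH (fall of 1.06) and USP39 (0.61) past both limits (14.3%, beside 11.8%). The 12 genes of Sm ring assembly had 0 calls in either direction at both limits, with 5 lower by the adjusted p (41.7%, beside 22.3%). Of these, DDX20 and GEMIN2 fell by 0.58 and 0.55, just short of 1.5-fold. The PRP19 complex list likewise had 0 calls at both limits among 14. By the adjusted p 4 were lower (28.6%, beside 22.3%) and 1 higher (7.14%, beside 23.2%). DDX39A, a helicase in export, was the call among 10 helicases and second step factors, with a fall of 1.18 that was larger within batch B (1.38) than within A (0.78, adjusted p of the difference = 0.0136).

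The hnRNP proteins under other symbols mostly fell, and other regulators of splice site choice moved both ways. Of these 9 hnRNP genes 6 fell (66.7%, beside 22.3% of all tested genes) and 1 rose (11.1%, beside 23.2%) by the adjusted p, with a median of -0.43. At both limits RBMX and PTBP1, a repressor of neuronal and beta-cell exons, fell by 0.77 and 0.75. The cold-induced CIRBP rose by 0.78, from 384 ± 51.3 to 655 ± 62.2 (SD, n = 6). SRPK1, a kinase that moves SR proteins into the nucleus, was the call among 8 SR protein kinases (fall of 0.64), and LUC7L2, a U1 associate, that among 17 SR-like proteins (fall of 0.79). SREK1, an SR-related protein, was short of 1.5-fold over both batches (0.31) but differed between them, with log2 fold changes of -0.13 (batch A) and 0.53 (batch B, adjusted p of the difference = 0.0393).

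Of 31 tissue-restricted and other splicing regulators 12 rose (38.7%, beside 23.2% of all tested genes) and 5 fell (16.1%, beside 22.3%) by the adjusted p. At both limits 3 rose (9.68%, beside 11.6%) and 4 fell (12.9%, beside 11.8%), which is near the shares of all genes. ESRP2, an epithelial regulator, MBNL2 and NOVA1 rose by 0.83, 0.78 and 0.61, and QKI, ELAVL2, RBFOX3 and RBM38 fell by 0.98, 0.91, 0.68 and 0.61. The rise of MBNL2 came from batch B (1.16, against 0.002 in batch A), and RBM38 had log2 fold changes of 0.29 (batch A) and -1.06 (batch B), with a joint adjusted p of 0.0922. Neither difference between batches passed the test (adjusted p = 0.117 and 0.188). ESRP2 rose mainly in batch B (1.14) and did not pass in batch A alone (0.22, adjusted p = 0.269). NOVA1 was short of 1.5-fold in batch A (0.48, against 0.67 in batch B). QKI did not pass in batch B alone (-0.69, adjusted p = 0.246, against -1.57 in batch A). The ESRP2, NOVA1 and QKI differences did not pass either (adjusted p = 0.2, 0.784 and 0.567). ELAVL2 (-1.28 and -0.72) and RBFOX3 (-0.72 and -0.66) were past 1.5-fold in batches A and B.

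**Figure D5:**
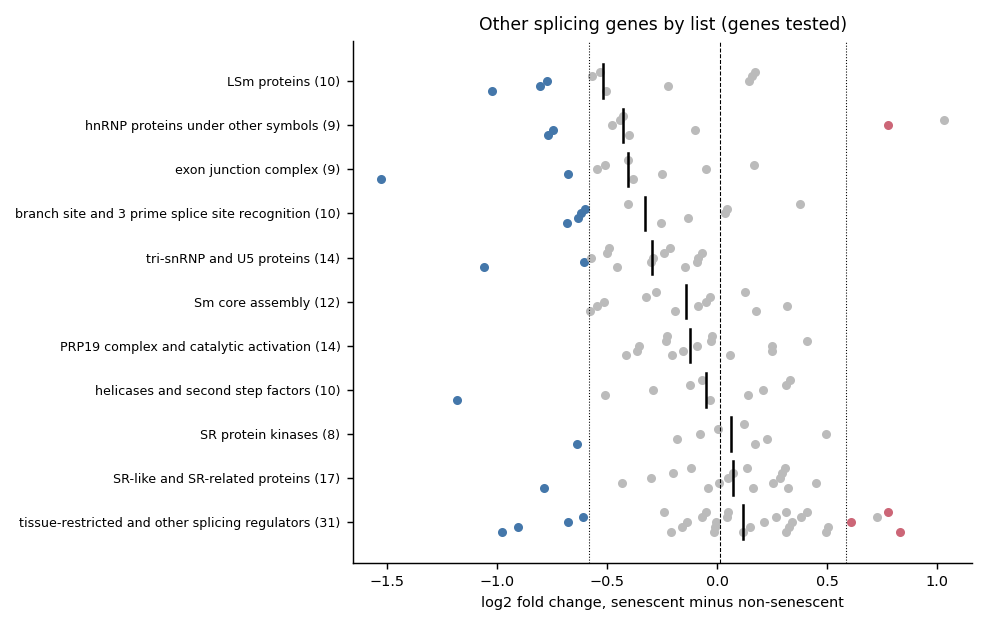
Log2 fold change of each tested gene in 11 lists of other splicing genes (points), with the list median as a black line, the 1.5-fold limits as dotted lines and called genes in blue (lower) or red (higher). The LSm list has a median of -0.52 and the list of tissue-restricted and other splicing regulators one of 0.12.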

How the data were processed

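Poly(A) RNA of 12 EndoC-βH3 samples was measured by CEL-seq2. Cutadapt for trimming, Salmon 0.13.1 for quantification on GRCh38 and DESeq2 for scaling were the tools of the authors. The deposited signal is the read number per gene divided by the size factor of the library. Of 196021 non-zero values, 100% were whole multiples of the value of 1 read (tolerance 0.01), so whole reads were recovered. The annotation, the use of strand and how molecular identifiers were handled are not given in the sources used here, so several reads may stem from the same molecule. Salmon divides reads among similar transcripts, which leaves paralogs and retrocopies uncertain. The deposited table also holds 6 columns of the authors' own comparison (mean, fold change, error, statistic, p-values), which were not used.

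Groups, batches (the letter in the sample titles) and replicates came from the labels. The labels do not say that samples were separate cultures, so p-values measure the spread between these samples, which may be technical. In 14 pairs of samples of the same group and batch the chi-square of the read numbers per degree of freedom was 4.14 to 7.66, so no pair matched within sampling noise.

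Groups were compared with limma 3.58.1 (R 4.3.3) fitted to log2(value + 1), with the intensity trend and with batch and group in the model, for 13847 genes with a mean of at least 5. The pseudocount understates changes of low genes. P-values were adjusted by Benjamini-Hochberg over these genes. A call needed a change of more than 1.5-fold and an adjusted p under 0.1. The batch by group interaction used the same adjusted p. Alternatives were other pseudocounts, filters and scalings, the batch term, a replicate block, single batches, single libraries left out, pseudogene reads added, and edgeR 4.0.16 (quasi-likelihood) and DESeq2 1.42.0 on recovered reads. The scripts were tested on simulated data, in which far fewer genes changed than passed here. At an adjusted p under 0.1 limma recovered 18%, 54% and 96% of the genes changed by 1.25-fold, 1.5-fold and 2-fold (50 each). A member that did not pass may thus still have changed by a small fold. Positions are from GENCODE v44 (GRCh38) and promoters from RefSeq (GRCh38.p14). Members past the adjusted p were named, with SNRNP70, SNRNP35, SNRNP48 and HNRNPA1L2 as further examples, and other splicing genes were named when called or when the batches differed. The members and the lists were chosen with earlier results of these data known.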

Additional observations from a re-analysis of the deposited data

Results flagged for a closer look

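Within each of 60 tested members, 4 sets of samples (each group over both batches, and each group in batch B) were checked for a sample far from the rest. Of these 240 sets 14 had one, and chance alone flags about 0.05 of sets. Sets over both batches contain the batch B sets, and a batch difference widens their range.

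Senescent library B1 stood apart in 4 members. It held 1304 normalised read counts of SNRPB (others 1494 to 1564), 245 of SF3A1 (others in batch B 281 to 288), 2603 of SNRNP70 (others in batch B 2447 to 2449) and 862 of SRSF9 (others 1030 to 1063, and apart within batch B too). Non-senescent library B4 held 1647 of HNRNPUL1 (others 1867 to 1961, and apart within batch B too) and 1649 of SRSF9 (others 1084 to 1289). Non-senescent library B3 held 1574 of SF3B1 (others in batch B 1149 to 1217) and 498 of HNRNPLL (others in batch B 379 to 396).

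In some of the other libraries a single member stood apart, and in the rest none did. Non-senescent A2 held 1764 of HNRNPM (others 1251 to 1430), non-senescent B2 held 968 of SRSF6 (others in batch B 912 to 920), senescent B2 held 521 of SRSF5 (others 437 to 461) and senescent B4 held 938 of HNRNPU (others in batch B 812 to 828).

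The response differed between batches, by the interaction term, in SNRNP40 (a log2 difference, batch B less batch A, of -1.26, adjusted p = 0.0496), SNRPB (-0.56, adjusted p = 0.0341) and, outside the members, DDX39A (-0.60, adjusted p = 0.0136) and SREK1 (0.66, adjusted p = 0.0393).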

How the results depend on the processing

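The count of members called lower was 11 and ranged from 8 (batch A alone) to 16 (batch B alone), with 12 by edgeR, 10 by DESeq2, 13 with TMM and 10 to 13 with a single library left out, but was 20 with every library at the same total. Other splicing genes called lower went from 20 to 32 under that scaling, and members higher at any fold from 4 to 2. Without the batch term members past the adjusted p were 1 higher and 21 lower. In batch A alone 2 members were called higher, HNRNPA1L2 (0.80) and SRSF12 (0.62). Leaving out single libraries gave 0 to 3 members that differed between batches, with 0 without non-senescent A1, senescent A1 or senescent A2 and 1 without non-senescent A2. All other counts lay within 1.5 times the main count.

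The replicate numbers of both groups did not pair the samples: correlations of same-numbered samples were -0.0508 to 0.0164, and no sample correlated best with its own number. With a replicate block 11 members were called lower and 0 higher, 34 fell and 4 rose at any fold, and 19 other splicing genes were called lower and 4 higher.

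Signs turned for log2 fold changes near 0 or unequal between batches. In batch A alone SNRNP40 was 0.26, SNRNP70 0.0735, SRSF11 -0.0337, SNRNP48 -0.33, SREK1 -0.13 and RBM38 0.29. In batch B alone SNRNP35 was -0.049 and HNRNPA1L2 -0.17. With the same total SNRNP35 was -0.00876 and SNRNP48 -0.10. The log2 fold change of SNRNP48 was -0.000216 with a pseudocount of 8, -0.00506 with TMM, -0.00591 with upper quartile scaling, -0.019 by edgeR and -0.00883 by DESeq2. With single libraries left out, SNRNP48 ranged from -0.0796 to 0.0713 and HNRNPA1L2 from -0.15 to 0.49. The cause was not tested.

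SNRPD2, SNRNP40, SF3A2 and SNRPE, which lay just under 1.5-fold, passed both limits without 8, 5, 4 and 2 of the 12 libraries in turn. USP39, PHF5A, U2AF2, NOVA1, RBM38, SRPK1 and MBNL2 lost the call without at least 1 library, RBM38 without each of 6 in turn (non-senescent B1, B3, B4 and senescent B1, B2, B3) and MBNL2 without non-senescent B3 (0.56). The SREK1 difference between batches did not pass without each of the 4 batch A libraries in turn (0.60 to 0.72). Depth limits low members most: HNRNPA1L2 had libraries without reads and a standard error of 0.53.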
